A study of Arabidopsis thaliana with 2 samples.

Results

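The genes for the proteins of the cytosolic ribosome were compared in shoots of Arabidopsis thaliana seedlings between the bts-1 mutant and the wild-type accession Col-0. Members were the genes whose deposited description begins with 40S ribosomal protein or 60S ribosomal protein, and this rule found 196 of the 18615 annotated genes, 84 of the small subunit and 112 of the large subunit. The bts-1 group was 1 RNA sequencing library from shoots carrying the bts-1 mutant genotype, and the Col-0 group was 1 library from wild-type shoots; both were raised on Murashige and Skoog medium at reduced strength with no added sucrose. The BTS gene, also named BRUTUS, codes for a ubiquitin ligase that restrains iron deficiency responses. The age of the seedlings, the number of plants in a library and the nature of the bts-1 lesion are not given in the sources used here. With 1 library per genotype no p-value, standard deviation between replicates or replicate check can be given, so each ratio compares these libraries and not the genotypes in general. BTS itself, on chromosome 3, was at 9.57 in the bts-1 library and 10.84 in the Col-0 library on the deposited log2 scale. This is a log2 ratio of -1.27 that has the direction of the labels. After the rescaling of chromosome 3 levels described further on, BTS was at 5.38 in bts-1 and 6.63 in Col-0.

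Each ribosome is built from a small and a large subunit, in which ribosomal RNA is bound by one copy of most ribosomal proteins. The small subunit reads the messenger RNA and the large subunit joins the amino acids. In plants nearly every one of these proteins is encoded by several paralogous genes, and their transcripts are most abundant in growing and dividing tissue, where ribosomes are being assembled in the nucleolus.

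The deposited values were read as log2(FPKM + 1), where FPKM is the number of sequenced fragments scaled to transcript length and library size. Each log2 ratio was taken as bts-1 minus Col-0. Genes were called higher in bts-1 at a log2 ratio of at least 0.32, and lower at -0.32 or below. The table gives no read counts, so the depth behind each value is unknown. A whole shoot was sampled, in which fewer cells of a type and less RNA per cell cannot be told apart.

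The L41 genes carried some of the lowest ratios among the members, and their coding sequences show how alike the copies of one ribosomal protein can be. L41 is the smallest ribosomal protein, a single helix that bridges the subunits, and its 5 Arabidopsis genes encode the same 25-residue protein. Their coding sequences, read from the RefSeq TAIR10.1 genome by its annotation, are each 78 bases long and differ at 9 positions, printed in capitals. The coordinates run from the first to the last coding base and include introns.
AT1G56045 (chr1:20962686-20963268, plus strand): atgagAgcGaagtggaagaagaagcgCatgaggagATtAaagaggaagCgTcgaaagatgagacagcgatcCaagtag
AT2G40205 (chr2:16792355-16792531, minus strand): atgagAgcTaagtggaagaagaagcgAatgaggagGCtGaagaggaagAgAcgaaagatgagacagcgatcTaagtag
AT3G08520 (chr3:2586032-2586206, plus strand): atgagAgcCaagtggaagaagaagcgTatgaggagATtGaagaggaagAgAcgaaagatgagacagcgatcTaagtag
AT3G11120 (chr3:3481128-3481304, plus strand): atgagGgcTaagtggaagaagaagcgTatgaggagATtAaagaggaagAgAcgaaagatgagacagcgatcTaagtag
AT3G56020 (chr3:20790826-20791043, minus strand): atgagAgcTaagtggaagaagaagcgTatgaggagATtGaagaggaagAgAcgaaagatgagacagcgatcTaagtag

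The members also share promoter letters. The telo box (searched as AAACCCTA) and site II (searched as TGGGCC or TGGGCT) are motifs known from plant ribosomal protein promoters, and each was looked for on both strands, overlaps allowed, in the 250 bases upstream of the annotated gene start. Of 14 members that held both motifs in a window free of exons of other genes, S5A (AT3G11940) had the highest log2 ratio, 0.25, and the L41 gene AT2G40205 the lowest, -0.59. The S5A promoter is widely used to drive transgenes in dividing plant cells. Both upstream windows are shown from TAIR10.1 with the motifs in capitals, and the coordinates follow the same build.
AT3G11940 (chr3:3779546-3779795, minus strand): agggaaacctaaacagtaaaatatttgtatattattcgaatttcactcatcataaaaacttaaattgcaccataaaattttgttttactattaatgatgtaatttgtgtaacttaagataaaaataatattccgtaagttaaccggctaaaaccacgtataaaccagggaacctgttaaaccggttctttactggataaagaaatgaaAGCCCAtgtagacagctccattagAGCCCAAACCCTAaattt
AT2G40205 (chr2:16792623-16792872, minus strand): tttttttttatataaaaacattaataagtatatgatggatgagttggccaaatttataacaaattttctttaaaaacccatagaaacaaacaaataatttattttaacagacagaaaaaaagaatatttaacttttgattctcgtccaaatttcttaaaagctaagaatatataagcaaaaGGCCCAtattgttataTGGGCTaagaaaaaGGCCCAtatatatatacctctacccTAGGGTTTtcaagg
The telo box shares a base with a site II in the S5A window and stands apart from the 3 site II matches in the L41 window. Both genes were picked for holding both motifs and for their ratios, so nothing follows from the pair about motif and ratio.

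Transcripts for ribosomal proteins were close to equal between the libraries, with a small shift to lower values in bts-1. The median level of the members was 6.14 in bts-1 and 6.32 in Col-0, and the median log2 ratio was -0.08. Across all 18510 genes tested the median log2 ratio was 0.04. Of the 196 members, 62 had a ratio above 0, 133 below 0 and 1 at 0, so that 67.9% were below 0 against 45.1% of all genes tested. The members varied little among themselves: the SD across genes was 0.20, compared with 0.51 over all genes tested, and 89 members lay within 0.1 of 0. Their 5th and 95th percentiles were -0.47 and 0.16.

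At the log2 threshold of 0.32, 1 member was higher and 22 were lower in bts-1, while 21% of all genes tested were higher and 18.3% were lower. In either direction 23 members passed, or 11.7%, against 39.3% of all genes tested. With all levels pooled, the members' shares were below those of the whole table in both directions. The shares by level, lower and higher, are given further on. At 1.5-fold, 1 member was higher, where the share over all genes was 7.53%, and 5 were lower, where it was 9.32%. No member was 2-fold higher or 2-fold lower, against 1.92% and 3.63% of all genes tested. All 196 members reached an FPKM of 1 in one library or both, and 188 reached 5.

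**Figure D1:**
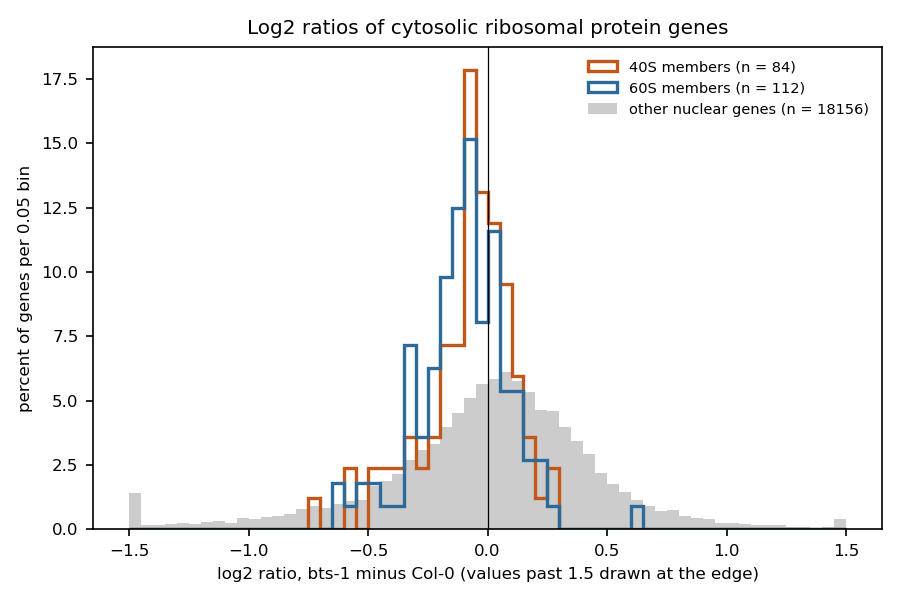
Histograms of the log2 ratio, bts-1 minus Col-0 (x axis), as the percent of genes per bin of 0.05 (y axis) for 40S members (n = 84, orange line), 60S members (n = 112, blue line) and other nuclear genes (n = 18156, grey bars; those without a reference exon length are left out). Both member groups form a narrow peak just below 0, inside a much wider spread of the other genes.

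Both subunits had a median slightly below 0. The 84 small-subunit genes had a median level of 6.24 in bts-1 and 6.38 in Col-0 and a median log2 ratio of -0.05, with 55 below 0 and 29 above. The 112 large-subunit genes had a median level of 6.10 in bts-1 and 6.21 in Col-0 and a median log2 ratio of -0.09, with 78 below 0 and 33 above. The middle of the genes, from the lower to the upper quartile, ran from -0.16 to 0.05 in 40S and from -0.20 to 0.02 in 60S, and these ranges overlap. Whether the subunits differ was not tested. Past the threshold, 9 of the 40S genes were lower and 0 higher, and 13 of the 60S genes were lower and 1 higher.

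Summed over all members, FPKM was 19775 in bts-1 and 20684 in Col-0 as deposited, a log2 ratio of -0.06. Levels of genes on chromosome 3 in the deposited table vary with the exons of the gene that follows, so for comparisons of level between genes they were rescaled by the exon lengths of both. Of the members, 56 lie on chromosome 3, and the SD of their Col-0 levels was 1.96 as deposited and 1.35 after rescaling. L35-1 (AT3G09500), a protein at the mouth of the exit tunnel for new chains, had the highest deposited level of any member, 10.44 in bts-1 and 10.71 in Col-0, and 6.93 in bts-1 and 7.20 in Col-0 after rescaling. Rescaling moved the median log2 ratio of all members little, from -0.083 to -0.082, but the members called lower went from 22 to 25. The log2 ratio of the summed FPKM of the chromosome 3 members went from -0.10 to -0.06. As deposited, the median ratio was -0.08 for members on chromosome 3 and -0.08 for the others, with 76.8% and 64.3% below 0. After rescaling, the members made up 2.84% of nuclear FPKM in bts-1 and 2.94% in Col-0.

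By level after rescaling, S8 (AT5G20290), a protein of the small-subunit body, led the members with 8.45 in bts-1 and 8.61 in Col-0. It was followed by L18a-2 (AT2G34480), at 8.34 in bts-1 and 8.27 in Col-0, and by L3-1 (AT1G43170), at 8.29 in bts-1 and 8.30 in Col-0. L3 reaches towards the peptidyl transferase centre of the large subunit. L19-1 (AT1G02780), which contributes to a bridge between the subunits, was at 8.21 in bts-1 and 8.31 in Col-0. The lowest levels were those of the L2-like gene AT2G07715, of Sa-2 (AT3G04770, rescaled level 2.11 in bts-1 and 2.18 in Col-0) and of L27-1 (AT2G32220), with 3.28 FPKM in bts-1 and 3.76 in Col-0. S8 led in both libraries, and the order of L18a-2, L3-1 and L19-1 in bts-1 was reversed in Col-0, with no replicate spread at hand to separate neighbours.

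The ratio followed the level of the gene among the members. The 61 members with a mean rescaled level of at least 7 had a median log2 ratio of -0.01, and the 60 members between 6 and 7 had -0.06. The 41 members between 5 and 6 had -0.11, the 13 between 4 and 5 had -0.22, and the 21 below 4 had -0.22. In the same 5 level classes, from the highest down, the medians of the other nuclear genes were -0.02, 0.00, 0.03, 0.05 and 0.05. Members of low level were therefore those furthest below the rest of the nuclear genes, and members of high level lay beside them. Of the 22 members that were called lower, 17 had a level under 6, as did 75 of all 196. Below level 4, 6 of 21 members were called lower, against 20.6% of other nuclear genes. Between 4 and 5 it was 5 of 13 against 15%. From 5 to 6 it was 6 of 41 against 15.9%, and from 6 to 7, 4 of 60 against 16.7%. At 7 and above it was 1 of 61 against 15%. The lower calls below 4 include S15ab (AT2G19720) and S15a-5 (AT4G29430), and those from 4 to 5 include the S19 gene AT5G47320. These are mitochondrial-type genes described further on. Called higher were 1 of 21 members below level 4, against 24.6% of other nuclear genes. In the classes above, 0 members were called higher, against 13.2% to 15.6% of other nuclear genes. Across the members, Pearson's r between log2 ratio and level was 0.35 and Spearman's rho 0.38, as a description over 196 genes that share both libraries; across the other nuclear genes r was -0.01 and rho -0.05.

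The ratio also followed exon length, and here the other genes did the same. Members are short, with a median exon length of 968.5 bases against 1800 in other nuclear genes. The 11 members under 600 bases had a median log2 ratio of -0.31, and other nuclear genes of that length had -0.23. In the classes from 600 to 800, 800 to 1000, 1000 to 1500 and at least 1500 bases, the members' medians were -0.15, -0.07, -0.06 and 0.03, and those of the other genes were -0.13, -0.04, 0.01 and 0.07. Of the 22 lower members, 10 had under 800 bases of exon, as did 45 of all 196. Under 600 bases, 4 of 11 members were called lower, against 44.6% of other nuclear genes. From 600 to 800 bases it was 6 of 34 against 33.7%, so short members were called lower no more often than other short genes. The part of transcript length in the shift of the members was not tested. By length and level at once, the 12 members under 800 bases and below level 5 had a median of -0.38, where 927 other genes had -0.17. The 25 members of at least 1200 bases and level 6.5 had 0.03, where 816 other genes had -0.02.

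**Figure D2:**
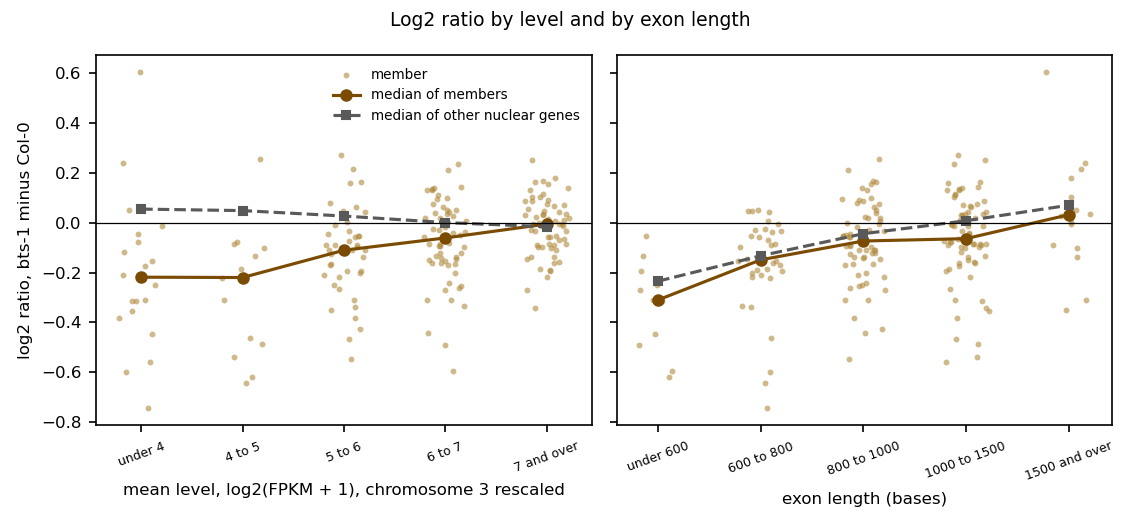
Log2 ratio, bts-1 minus Col-0 (y axis), of each member (points) by mean level in log2(FPKM + 1) (left) and by exon length in bases (right), with the medians of the members (solid line) and of the other nuclear genes (dashed line) in each class. On the left only the members' median drops, to -0.22 in the lowest class; on the right both medians drop together towards short exons.

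The highest ratio of any member, 0.60, was that of the L2-like gene AT2G07715, which stayed under an FPKM of 5 and is described further on. Among the members that reached an FPKM of 5, S12-2 (AT2G32060), a protein of the small-subunit beak, was at 5.63 in bts-1 and 5.35 in Col-0, a log2 ratio of 0.27. L16A (AT2G42740), whose protein is 99.5% identical to L11 and which with L5 carries the 5S ribosomal RNA, was at 4.18 in bts-1 and 3.92 in Col-0, a ratio of 0.26. S5A (AT3G11940), which lies near the mRNA exit channel, was at 6.90 in bts-1 and 6.64 in Col-0. After these came L18a-1 (AT1G29970) and L18a-3 (AT3G14600), both with 0.24, L7-3 (AT2G44120) with 0.21 and S19-1 (AT3G02080) with 0.21. L18-3 (AT5G27850) had 0.18, S13-2 (AT4G00100) had 0.17, and L7-2 (AT2G01250), S17-3 (AT3G10610) and the L9-1 gene AT1G33140 each had 0.16. None of these 12 reached 0.32.

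The lowest ratios lay further from 0. S15a-5 (AT4G29430), with -0.75, was the lowest of all members and S15ab (AT2G19720), with -0.60, the fourth lowest, and both are described with the divergent proteins further on. L29-2 (AT3G06680), a short protein of the large subunit, was at 3.97 in bts-1 and 4.61 in Col-0, a log2 ratio of -0.64. Among the L41 genes, AT3G56020 was at 2.91 in bts-1 and 3.53 in Col-0 (-0.62), and AT2G40205 was at 5.92 in bts-1 and 6.52 in Col-0 (-0.59). S11-2 (AT4G30800), of the small-subunit body, was at 2.65 in bts-1 and 3.21 in Col-0, a ratio of -0.56. Next came L14-1 (AT2G20450) with -0.55 and L3-2 (AT1G61580) with -0.54, and L19-2 (AT3G16780) was at 3.29 in bts-1 and 3.76 in Col-0, a ratio of -0.47. Most of these are secondary copies: of the 22 members called lower, 3 were the highest-level gene of a family of 2 or more, 18 were another gene of such a family, and 1 was alone in its family. Over all families of 2 or more grouped by protein sequence, the 70 highest-level genes had a median log2 ratio of -0.02 with 40 below 0, and the other 116 genes had a median of -0.11 with 85 below 0.

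Members were grouped by the protein named in the description, which gave 77 families, 69 of them with 2 or more genes. Within these 69 families the difference between the highest and the lowest ratio had a median of 0.18, and in 48 it was under 0.32. The gene of highest level was the same in both libraries in 66 of the 69 families. The exceptions were L4, S14 and L41, whose leading genes had nearly equal levels. For L4, which lines the exit tunnel, L4-2 (AT5G02870) led in bts-1 with 7.34, where L4-1 (AT3G09630) was at a rescaled 7.25, and L4-1 led in Col-0 with a rescaled 7.35, where L4-2 was at 7.24. In 45 of 69 families, or 65.2%, the ratio of the highest-level gene was above the median of the others. The share of family FPKM held by that gene was 1.22 percentage points higher in bts-1 at the median, with a range of -5.92 to 7.76 points.

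Grouping by protein sequence, at 60% identity or more over the shorter protein, gave 80 families and differed from the names in a few places. It joined L16A with L11, and it set divergent proteins of S15a, S10, S19 and L7 apart. In 36 of these 80 families every gene had a ratio below 0, in 8 no gene did, and 36 were mixed. The log2 ratio of the summed FPKM of a family had a median of -0.07, and it was below 0 in 56 of 80.

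The families with the widest range of ratios were S15a, S19, S25, L3, S9, S11, S28 and L14, and in each of them a gene other than the leading one had the lowest ratio. In S15a, which binds the small-subunit RNA early in assembly, the range was 0.83 by name and 0.52 among the 3 genes of the typical protein. The S15a-1 gene AT1G07770 led the family with 7.17 in bts-1 and 7.11 in Col-0, a ratio of 0.05. A second gene for the identical protein, AT5G59850, was at 6.10 in bts-1 and 6.55 in Col-0, a ratio of -0.44, and S15a-4 (AT3G46040) had 0.08. The 2 remaining names in this family, S15ab and S15a-5, encode a divergent protein described further on.

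In S25, a small protein of the small-subunit head, S25-4 (AT4G39200) was at 7.52 in bts-1 and 7.37 in Col-0, a log2 ratio of 0.15. S25-2 (AT2G21580) was at 5.77 in bts-1 and 5.88 in Col-0, and S25-3 (AT4G34555) at 3.96 in bts-1 and 4.42 in Col-0, ratios of -0.11 and -0.46. The order of ratios was the order of levels here. S19, needed in yeast and human cells to mature the small subunit, had that order in its 3 cytosolic genes: S19-1 (AT3G02080) was at 5.54 in bts-1 and 5.33 in Col-0 (0.21), S19-3 (AT5G61170) at 5.84 in bts-1 and 5.93 in Col-0 (-0.09), and S19-2 (AT5G15520) at 3.44 in bts-1 and 3.75 in Col-0 (-0.31), with S19-1 first by level once rescaled. The family by name also holds the mitochondrial-type gene AT5G47320, whose ratio of -0.49 is the lowest in it although its level is above that of S19-2.

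In L3 the leading gene L3-1 had a log2 ratio of -0.01, and L3-2 (AT1G61580), whose protein is 86.4% identical, was at 3.77 in bts-1 and 4.30 in Col-0. L3-1 held 96.1% of the family's FPKM in bts-1 and 94.4% in Col-0. S9-1 (AT5G15200), of the mRNA entry side, was at 7.27 in bts-1 and 7.13 in Col-0, a ratio of 0.14, and S9-2 (AT5G39850) at 2.90 in bts-1 and 3.29 in Col-0, a ratio of -0.38. For S11, S11-1 (AT3G48930) had -0.06 and S11-3 (AT5G23740) -0.05, against -0.56 for S11-2, whose protein is 93.7% identical to S11-1. L14-2 (AT4G27090) was at 7.95 in bts-1 and 8.02 in Col-0, a ratio of -0.07, and L14-1 at 5.37 in bts-1 and 5.91 in Col-0, so that L14-2 held 86.0% of family FPKM in bts-1 and 81.3% in Col-0. In these families the sum is carried by a gene whose ratio was near 0 or above it.

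In S28 the leading gene had the lowest ratio of the leading genes in these 8 families. S28-1 at AT5G03850 was at 6.25 in bts-1 and 6.51 in Col-0, a log2 ratio of -0.26, while S28-2 (AT5G64140) was at 6.12 in bts-1 and 6.05 in Col-0, a ratio of 0.06. A second S28-1 gene, AT3G10090, with the same protein, was at 1.53 in bts-1 and 1.97 in Col-0. Rescaled, AT3G10090 was at 3.53 in bts-1 and 4.12 in Col-0, and the summed rescaled FPKM of S28 was 154.1 in bts-1 and 172.2 in Col-0.

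**Figure D3:**
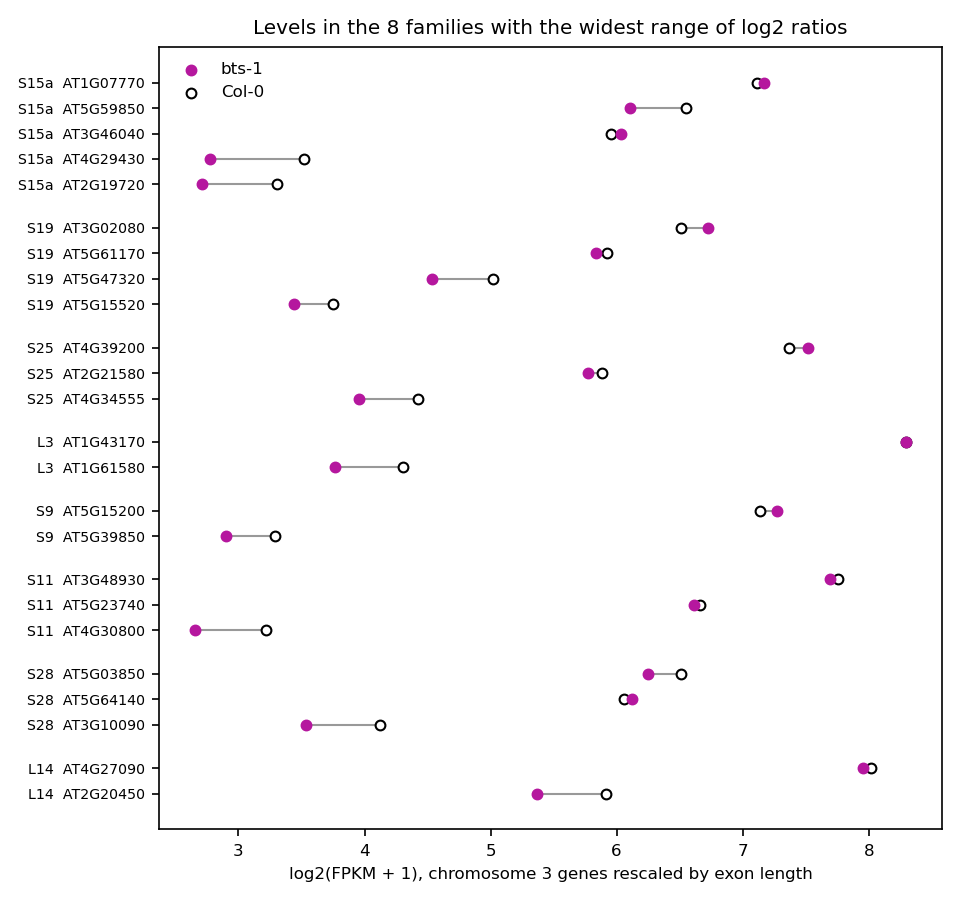
Level of each gene in log2(FPKM + 1), with chromosome 3 genes rescaled (x axis), in bts-1 (filled) and Col-0 (open) for the 8 families with the widest range of log2 ratios. The lowest-level gene of each family lies further left in bts-1 than in Col-0, while the log2 ratio of the highest-level gene is at most 0.15 from 0, apart from S28 (-0.26) and S19 (0.21).

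Several members have a twin whose reads could be shared. Of the 196, 53 have a partner with at least 98% protein identity, in 47 pairs, 31 of them identical in protein. The difference in log2 ratio between the genes of such a pair had a median of 0.12, and the largest among identical proteins was 0.50, that of the S15a-1 pair. Their coding sequences are 85.2% identical. The L21-1 genes AT1G09590 (-0.31) and AT1G09690 (0.08) also encode identical proteins, with coding sequences 96.2% identical. Closer still, among others, were the L9-1 genes AT1G33120 (-0.10) and AT1G33140 (0.16), at 99.1%. The L41 genes AT3G08520 (-0.27) and AT3G56020 (-0.62) were at 98.7%. S16-1 (AT2G09990, -0.31) and S16-3 (AT5G18380, 0.10) were at 98.2%. In pairs this alike the split of reads between the genes, and so each ratio, is less certain. The 53 members with such a partner had a median ratio of -0.05 and the other 143 had -0.09.

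Every gene was below 0 in L41, and this family had one of the lowest ratios of summed FPKM. AT1G56045 was at 5.82 in bts-1 and 6.31 in Col-0, a log2 ratio of -0.49. AT3G08520 was at 1.84 in bts-1 and 2.11 in Col-0 as deposited (-0.27) and at 5.93 in bts-1 and 6.28 in Col-0 when rescaled (-0.36). AT3G11120 was at 1.90 in bts-1 and 2.15 in Col-0 as deposited (-0.25) and had -0.32 when rescaled. The 5 genes summed to a rescaled FPKM of 235.3 in bts-1 and 327.5 in Col-0, a log2 ratio of -0.48. All 5 have under 600 bases of exon, the class in which other nuclear genes also had a median of -0.23. The part of length in the ratio of L41 was not tested.

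L29 was the other family of 2 or more typical members that low, with 28.0 rescaled FPKM in bts-1 and 40.7 in Col-0, a log2 ratio of -0.54. S6, the ribosomal protein phosphorylated by S6 kinase under control of TOR, was lower in both genes by a similar amount, short of the threshold. S6-1 (AT4G31700) was at 7.25 in bts-1 and 7.47 in Col-0, and S6-2 (AT5G10360) at 7.51 in bts-1 and 7.70 in Col-0. L35, L27a, L24, L31, L36, L39, S20 and S30 were among the families that also had every gene below 0. Of these L35, L31 and L39 lie around the mouth of the exit tunnel. The L35 genes had log2 ratios of -0.27 to -0.11 and a summed rescaled FPKM of 216.0 in bts-1 and 254.1 in Col-0. L24-2, STV1 (AT3G53020), known for its part in reinitiation after upstream reading frames, was at 5.91 in bts-1 and 6.06 in Col-0.

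A few families had every gene above 0. L8, the counterpart of the bacterial L2 at the peptidyl transferase centre, had 326.5 FPKM in bts-1 and 297.0 in Col-0, with a log2 ratio of 0.13 in L8-1 (AT2G18020) and 0.14 in L8-3 (AT4G36130). S12 had 136.2 FPKM in bts-1 and 119.8 in Col-0. L18a had 443.6 in bts-1 and 409.8 in Col-0 after rescaling. All of these ratios are under 0.32. In L10 and L23a the genes moved apart: L10-1 (AT1G14320) had a log2 ratio of 0.03 and L10-3 (AT1G66580) -0.34, and L23a-1 (AT2G39460) had 0.03 and L23a-2 (AT3G55280) -0.38. L23a sits at the tunnel exit, where the signal recognition particle docks. L23a-1 held 66.3% of that family's FPKM in bts-1 and 59.6% in Col-0.

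In 5 members the label of a cytosolic protein went against sequence or known function. S15ab (AT2G19720) and S15a-5 (AT4G29430) are 92.2% identical to each other and 53.5% and 54.3% identical to S15a-1, and are known in Arabidopsis as mitochondrial proteins. S15ab was at 2.71 in bts-1 and 3.31 in Col-0, a log2 ratio of -0.60. S15a-5 was at 2.77 in bts-1 and 3.52 in Col-0, a ratio of -0.75, the lowest of any member. The mitochondrial-type S19 gene AT5G47320 was at 4.53 in bts-1 and 5.02 in Col-0 (-0.49), and the mitochondrial-type S10 gene AT3G22300 was at 3.02 in bts-1 and 3.03 in Col-0 (-0.01). The L2-like gene AT2G07715, on chromosome 2, was at 1.94 in bts-1 and 1.34 in Col-0, a ratio of 0.60, the only one called higher. Its whole coding sequence matches the mitochondrial genome, 907 bases at 99.7% identity and 263 bases at 99.6%, so reads of the mitochondrial gene cannot be told apart from its own. Without these 5, the median log2 ratio of the remaining 191 members was -0.08, with 0 called higher and 19 called lower.

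Some members are neighbours. On chromosome 2, S15ab (AT2G19720), L28-1 (AT2G19730), L31-1 (AT2G19740) and S30 (AT2G19750) follow each other with no protein-coding gene between them. Their log2 ratios were -0.60, 0.02, -0.13 and -0.05. S15ab and L28-1 are transcribed away from each other, and the 90 bases between their annotated starts hold a single telo box, in capitals in the TAIR10.1 sequence, which is written in the direction of L28-1.
AT2G19730 (chr2:8511396-8511485, plus strand): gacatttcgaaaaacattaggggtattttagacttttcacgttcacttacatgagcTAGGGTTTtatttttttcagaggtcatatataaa
L28-1 was at 6.88 in bts-1 and 6.86 in Col-0, so the genes on either side of this stretch differed in both level and ratio. On chromosome 4, S30 (AT4G29390, -0.17), L28-2 (AT4G29410, -0.14) and S15a-5 (AT4G29430, -0.75) also lie close together, with a single protein-coding gene between neighbours. In both blocks the divergent S15a gene had the lowest ratio.

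The telo box was found upstream of 36 of 196 members (18.4%) and of 588 of 17636 other protein-coding genes (3.33%). By subunit, 9 of 84 small-subunit and 27 of 112 large-subunit genes held it. Site II was found upstream of 132 members (67.3%) and of 3987 other genes (22.6%), and 96 members held it more than once. Both motifs together were found in 27 members (13.8%) and in 220 other genes (1.247%). The TATA box, searched as TATAAA, was found in 51% of members and 45.8% of other genes. The presence of a motif went with little difference in ratio: the median log2 ratio was -0.09 in members with a telo box and -0.08 in those without, and -0.07 in members with site II and -0.09 in those without. These matches are letters in a window and not shown to be sites.

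**Figure D4:**
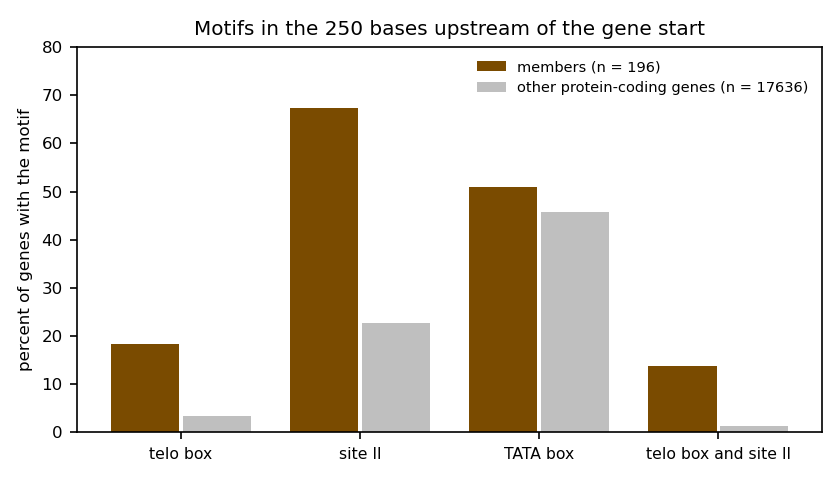
Percent of genes (y axis) with each motif in the 250 bases upstream of the annotated start, for members (n = 196, dark bars) and other protein-coding genes of the table (n = 17636, grey bars). Site II stands in 67.3% of members and 22.6% of other genes, and the telo box in 18.4% and 3.33%.

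Some ribosomal proteins fell outside the naming rule. The stalk proteins P0 to P3, which recruit elongation factors, together with the scaffold RACK1 gave 14 genes with a median log2 ratio of -0.04. Of these 0 passed the threshold, where 39.3% of all genes tested did so in either direction. P0-2 (AT3G09200) was at 8.04 in bts-1 and 7.94 in Col-0, and P1-2 (AT4G00810) at 5.95 in bts-1 and 6.16 in Col-0. S27a and L40 are made as fusions to ubiquitin, and 3 of their 5 genes carry a description that opens with ubiquitin. UBQ6 (AT2G47110), an S27a gene of high level, was at 7.15 in bts-1 and 7.16 in Col-0. UBQ5 (AT3G62250), a further S27a gene, on chromosome 3, was at a rescaled 7.35 in bts-1 and 7.38 in Col-0. The member S27a-1 (AT1G23410) was at 2.58 in bts-1 and 2.83 in Col-0. The 34 nuclear genes described as 30S or 50S ribosomal proteins, the type found in chloroplasts and mitochondria, had a median log2 ratio of 0.01. Of them 0 were called higher and 1 lower, at -1.34, where the shares over all genes tested were 21% and 18.3%.

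Genes that make or use ribosomes were set beside the members from lists of known factors. Of 24 ribosome assembly genes tested, 1 was called higher and 4 lower, against 21% and 18.3% of all genes tested, with a median log2 ratio of -0.09. NOP56 (AT1G56110), of the box C/D complex that methylates ribosomal RNA, was at 5.33 in bts-1 and 5.67 in Col-0. NAP57 (AT3G57150), the pseudouridine synthase, on chromosome 3, was at 7.78 in bts-1 and 8.10 in Col-0 as deposited, a ratio of -0.32. Rescaled it was at 4.58 in bts-1 and 4.89 in Col-0, and its ratio then fell short of the threshold. The lowest log2 ratios were those of REBELOTE (AT3G55510), -0.54, and OLI2 (AT5G55920), -0.37. REBELOTE, on chromosome 3, was at a rescaled 1.99 in bts-1 and 2.42 in Col-0. The helicase RH36 (AT1G16280) was the higher one, at 2.93 in bts-1 and 2.59 in Col-0. The largest subunit of RNA polymerase I, NRPA1, was at 4.73 in bts-1 and 5.25 in Col-0, and NRPA2 at 3.49 in bts-1 and 3.70 in Col-0. Among 24 initiation factor genes the median was 0.04, with 0 higher and 1 lower.

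Of 14 elongation factor genes 1 was called higher and 1 lower, with a median log2 ratio of 0.10, where the shares over all genes tested were 21% and 18.3%. The lower one, the elongation factor 1-beta gene AT5G12110, was at 4.45 in bts-1 and 5.55 in Col-0, a ratio of -1.10, while AT5G19510, a second gene described as elongation factor 1-beta, was at 7.56 in bts-1 and 7.45 in Col-0. In the TOR pathway, 0 of 7 genes were called higher and 1 lower, beside the same shares, with a median of -0.02. S6K2 (AT3G08720), one of the kinases that phosphorylate S6, was at 2.35 in bts-1 and 3.40 in Col-0, and TOR itself at 4.38 in bts-1 and 4.06 in Col-0.

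Markers of tissue were read beside these values. All 7 shoot markers, genes of Rubisco and the light-harvesting complexes, were among the highest of the table, at 10.71 to 12.17 in bts-1 and 10.44 to 12.41 in Col-0. Of 8 root markers 3 were among the genes tested, and all of these had a ratio above 0. PYK10 was at 10.19 in bts-1 and 10.06 in Col-0, and PHT1;1 at 2.78 in bts-1 and 2.22 in Col-0. CASP1 was at 1.33 in bts-1 and 0.91 in Col-0. Called higher were 2 of the 3 root markers, PHT1;1 and CASP1, and 2 of the 7 shoot markers, against 21% of all genes tested. Called lower were 0 of either list, against 18.3%. The 11 markers of dividing cells, where ribosomal protein transcripts are most abundant, had a median log2 ratio of 0.11. They were split, with 6 above 0 and 5 below. Of them 1 was called higher (CDKB2;2) and 1 lower (PCNA1), where the shares over all genes tested were 21% and 18.3%. Of 6 seed markers 0 were among the genes tested. The part of tissue make-up in the ratios of the members was not tested.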

How the data were processed

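Total RNA of shoots was sequenced from 1 bts-1 and 1 Col-0 library made with a directional kit, per the labels' protocols. Reads were handled with cutadapt 1.12, TopHat2 2.1.0 with Bowtie, HTSeq 0.9.1 and CASAVA 1.8.2 on the build TAIR10, tools that the submitters' processing notes list with no settings or order. The authors deposited 1 column of normalized FPKM per genotype for 18617 genes, on a log2 scale; 2 without symbol or description were left out. The design had assumed linear FPKM with a pseudocount of 1, and that pseudocount is already inside the values. Sorted, the columns agree within 1e-06 at 79.9% of ranks, as after quantile normalization, a step no label records, so ratios are relative to the other genes.

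The genes tested, those that reached an FPKM of 1 in one library or both, were set against log2 thresholds of 0.32 and folds of 1.5 and 2; no statistical test was possible. Chromosome 3 levels were multiplied by the following gene's exon length and divided by their own. Exon lengths, proteins and sequences came from the RefSeq TAIR10.1 assembly, in which all 196 members were matched. Proteins were aligned globally with Biopython 1.88 (gap penalties 10 and 0.5), and the L2-like gene was aligned to the mitochondrial genome with BLAST+ 2.17.0.

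The members and lists were chosen with earlier results of these data known. Genes to name were drawn from the 12 highest and 12 lowest members by ratio with an FPKM of at least 5, and the members past 2-fold. Also drawn were the members of the 8 families of widest range, the 5 highest and 5 lowest by level, and the leading gene of other families. From each other list, up to 4 genes of the largest absolute log2 ratio were drawn. Of the leading genes and the other lists, only some are named. NAP57, P0-2, UBQ6 and AT5G19510 are named outside this rule. Other members are named where a family is described whole, chosen after their values were seen.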

Additional observations from a re-analysis of the deposited data

How the results depend on the processing

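No paired analysis was possible because each genotype has 1 library. The median log2 ratio of the members, -0.08, stayed between -0.12 (centred on the median of nuclear genes) and -0.06 (without members under 800 bases of exon), and the medians of 40S and 60S stayed below 0 in every alternative run. The count called higher, 1, became 0 with a pseudocount of 5, with a minimum FPKM of 5, and without the 5 members of organellar type. The count called lower, 22, became 5 at 1.5-fold and 12 without the members under 800 bases of exon, and lay between 16 and 29 under the other alternatives. Of 49 named members, rescaling chromosome 3 moved 1 by more than 0.1, a pseudocount of 0.1 moved 3 and a pseudocount of 5 moved 11, and none of those moved changed sign. Leaving out members of organellar type or with short exons, and grouping families by protein sequence, were chosen after seeing the data. Depth is unknown, and with 1 library per genotype no spread between plants can be set beside any ratio.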
